A study of Mus musculus with 9 samples.

Results

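Laminins are the cross-shaped heterotrimers of basement membranes, and integrins are the αβ receptors through which cells hold on to laminins, other matrix proteins and one another. This account covers the genes for laminin α, β and γ chains and for integrin α and β subunits in mouse subcutaneous adipose tissue. Members were taken by symbol from the protein-coding genes of GENCODE M21, as every gene named Lama, Lamb or Lamc with a digit and every gene named Itga or Itgb with a number or a letter. The rule gave 37 genes of 35071 in the files, with 11 laminins, 18 integrin α subunits and 8 integrin β subunits. All 37 were present in the files and 36 passed the filter on low counts; the exception was Lama1. The rule itself uses symbols only, though it was written with earlier results of these data known.

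RNA sequencing covered 9 libraries of whole subcutaneous fat from C57BL/6 mice of 24 weeks, 3 in each of 3 genotype groups that the labels call Homo KO, Hete KO and WT. The knockout is of AGO1, an Argonaute protein that carries microRNAs, and the series describes it as endothelial; the WT mice were littermates. The Cre driver, the sex of the mice and whether each library is a different mouse do not appear in the labels, so the p-values below measure the spread between these libraries, which may be partly technical. Since whole tissue was sequenced, fewer cells of a type and less RNA per cell cannot be told apart.

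Laminin chains are secreted as trimers of 1 α, 1 β and 1 γ chain, joined along a coiled coil, and the α chain carries the domains that cell receptors bind. Trimers are numbered by their chains, so that laminin-411 is made of α4, β1 and γ1. Endothelial basement membranes are known for the α4 and α5 chains, muscle for α2, and epithelia of skin and glands for α3 and β3. Integrin β1 pairs with the largest set of α subunits, among them the laminin receptors α3, α6 and α7, the collagen receptors α1, α2, α10 and α11 and the fibronectin receptor α5. Integrin β2 is restricted to leukocytes, where it pairs with αL, αM, αX and αD.

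Total estimated counts per library were between 20843427 and 28252001, and the 37 genes took 0.293 to 0.440% of them. Ago1 itself had 62.2, 58.6 and 25.8 normalized CPM in Homo KO libraries, 51.2, 59.7 and 60.1 in Hete KO libraries and 69.9, 63.8 and 63.4 in WT libraries (CPM, read counts scaled to a common library size after TMM normalization). All KO libraries were below all WT libraries, Homo KO 3 by the most, and this whole-tissue measure cannot show how much AGO1 endothelial cells had lost. Markers of adipocytes (12 genes) made up 1.74 to 2.47% of counts over all libraries and markers of endothelial cells (15 genes) 0.0912 to 0.154%. By TPM, a length-scaled measure explained below, adipocyte markers summed to 23101 to 28364 in Homo KO and 23611 to 28627 in Hete KO libraries. WT libraries had 15262 to 22406, so every KO library was above every WT library by TPM, while the count shares overlapped. The part of adipocytes in the values below was not tested. RNA of other tissues was unevenly spread. The 18 skeletal muscle genes took 3.15% of counts in Hete KO 2, 1.25% in WT 1 and 1.18% in WT 2, against 0.0104 to 0.155% in the other libraries. The liver transcript Alb had 633 CPM in WT 2 and 609 in WT 3, against 6.43 to 46.9 CPM in the other 7 libraries, WT 1 being the lowest. The 23 liver genes found took 0.181% of counts in WT 1, 0.386% in WT 2 and 0.380% in WT 3, and 0.0540 to 0.107% in the KO libraries, so that every KO library was below every WT library. Since WT 1 had the lowest Alb, the share on the liver genes may not all be liver RNA. The part of these transcripts in the differences from WT was not tested beyond a few fits. Those fits left out such libraries or took these shares as covariates, and are given where calls are listed.

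Levels were compared between genes per transcript length, as TPM (length-scaled transcript abundance, with the same total in every library) summed over long coding transcripts, those at least 50% as long as the gene's longest protein-coding transcript. This restriction matters for some members. A retained-intron transcript of 424 bases held 59.1% of the summed TPM of Lamb1, and a processed transcript of 258 bases held 48.2% of that of Lamb3.

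The most abundant laminin chain genes were Lamc1, Lama4, Lamb2, Lamb1 and Lama2, the chains of laminins 411, 421, 211 and 221. On the long coding TPM scale Lamc1 averaged 100.4 ± 7.64 in Homo KO, 94.0 ± 16.8 in Hete KO and 118 ± 3.93 in WT libraries, and Lama4 averaged 110.1 ± 8.46 in Homo KO, 104 ± 10.7 in Hete KO and 88.1 ± 8.07 in WT libraries (SD, n = 3 each). Both overlapped in range with each other in Homo KO and Hete KO libraries, but not in WT libraries, where Lamc1 was the higher. Lamb1 and Lamb2, which can replace each other in a trimer, were near equal, with a ratio of 0.927 ± 0.00946 in Homo KO, 0.973 ± 0.0831 in Hete KO and 0.986 ± 0.176 in WT libraries. Lama2, the chain of muscle and nerve laminins, followed at 27.4 ± 0.419 TPM in Homo KO, 23.2 ± 4.63 in Hete KO and 25.6 ± 2.52 in WT libraries. The remaining chains had lower levels, led by Lama5, Lamb3 and Lamc3.

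Lama3 and Lamb3, chains best known from the basement membranes of epithelia, were both low. Lama3 stood at 2.20 ± 0.428 TPM in Homo KO, 2.45 ± 0.465 in Hete KO and 0.970 ± 0.0788 in WT libraries. Lamb3 stood at 4.47 ± 0.952 TPM in Homo KO, 3.31 ± 1.19 in Hete KO and 7.61 ± 0.322 in WT libraries. Markers of epithelium and keratinocytes were near absent. Their 14 genes summed to 3.55 to 13.9 TPM in Homo KO, 4.44 to 5.95 in Hete KO and 4.86 to 8.98 in WT libraries, with Krt15 at 0 in all 9 libraries and Krt5, Krt14 and Krt1 at 0 in all Hete KO and WT libraries.

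Among the integrins Itgb1 had the highest level, 235 ± 22.7 TPM in Homo KO, 222 ± 29.2 in Hete KO and 238 ± 43.8 in WT libraries. By the mean over all 9 libraries Itga7 and Itga6, both α partners of β1 in laminin receptors, came next. Itgb5, Itga1, the collagen receptor subunit, and Itgav, which pairs with 5 β subunits, followed. Itgb4, the partner of α6 in hemidesmosomes, was low, at 2.08 ± 0.558 TPM in Homo KO, 1.96 ± 0.602 in Hete KO and 2.60 ± 0.276 in WT libraries. Itga6 itself had 65.7 ± 9.82 TPM in Homo KO, 59.6 ± 24.3 in Hete KO and 81.5 ± 7.44 in WT libraries. Of 24 known αβ pairs, α7β1 had the highest level of its scarcer subunit by the mean over all 9 libraries, then α6β1, α1β1, αvβ1 and αvβ5. By group Itga7 averaged 66.9 ± 3.74 TPM in Homo KO, 54.1 ± 21.8 in Hete KO and 104 ± 6.96 in WT libraries. It thus stood above Itga6 in WT, near it in Homo KO and below it in the Hete KO mean. Itga2b, the platelet subunit that pairs with β3, had the lowest long coding level of the α subunits and was listed at 0 in Homo KO 1 and WT 2, its long coding transcripts holding 3.63% of its TPM. The plot of levels shows this order.

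**Figure D1:**
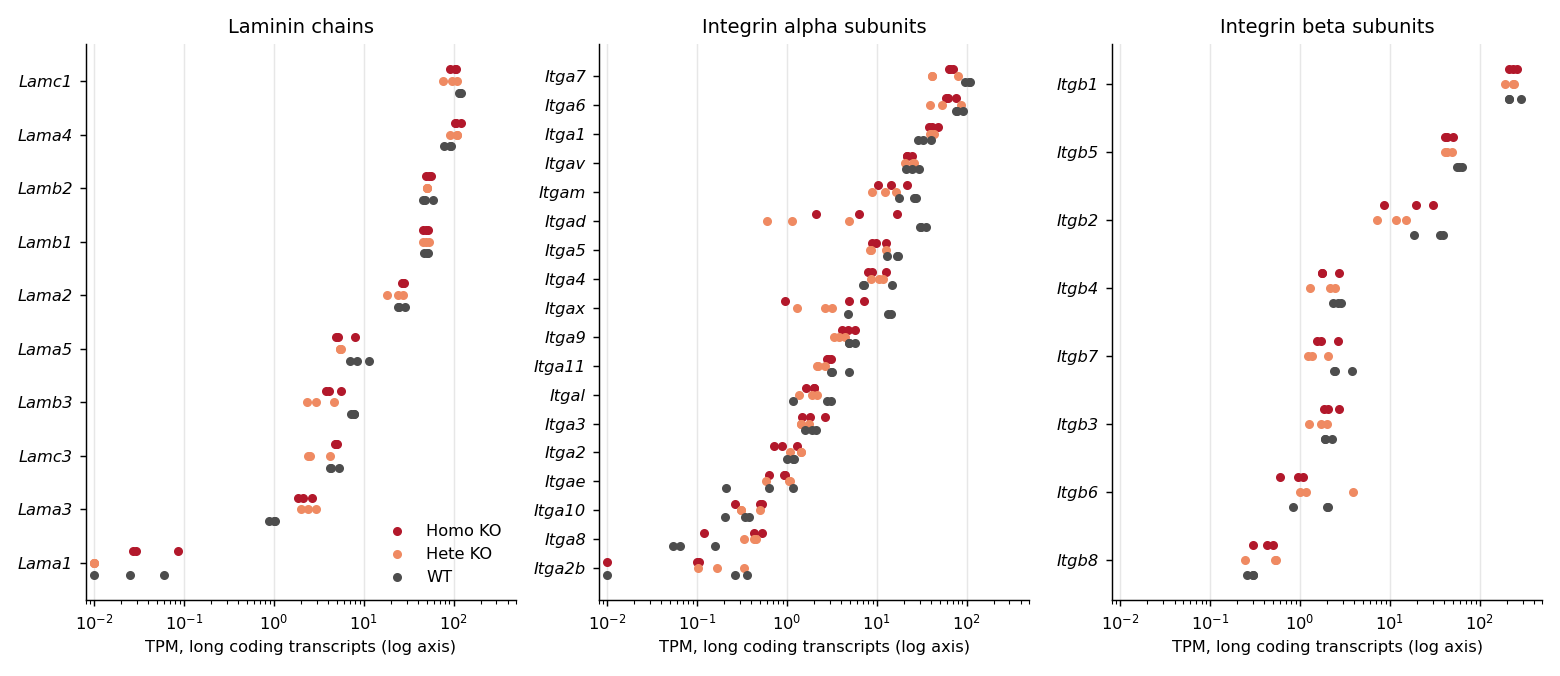
Level of 36 laminin chains, integrin α subunits and integrin β subunits in TPM of long coding transcripts on a log axis, 1 point per library (3 per group), genes ordered by mean level. Values under 0.01 TPM are drawn at 0.01. Lamc1, Itga7 and Itgb1 lead their panels, and the KO points of Lama3 all lie above, and those of Itgad all below, the WT points.

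The comparisons ask which of these genes differ in mRNA level when AGO1 is deleted. Both KO groups are set against the same 3 WT libraries, so their results are not independent of each other. In Homo KO against WT, edgeR's quasi-likelihood F-test with Benjamini-Hochberg adjustment over 17968 tested genes called 0 of 36 tested members at an adjusted p under 0.05, as it called 0% of all tested genes in either direction. At an unadjusted p under 0.05, 3 members were higher (7.75% of all tested genes) and 8 lower (8.68%), and DESeq2 called Lama3 higher (1.61% of all genes) and Lamb3 lower (2.02%). Homo KO and WT libraries did not overlap for 4 members that were higher and 10 that were lower, against 10.9% and 11.2% of all tested genes. In Hete KO against WT, Lama3 was called higher, against 0.15% of all tested genes, and Lamb3 lower, against 0.267%. At an unadjusted p under 0.05, 3 members were higher there (9.71% of all genes) and 14 lower (12.1%). In these libraries 3 members lay higher without overlap (12.6% of all genes) and 14 lower (12.1%), and DESeq2 called 1 member higher (3.62%) and 11 lower (5.7%). With both KO groups averaged and set against WT, Lama3 was called higher (0.824% of all genes) and Lamb3 and Itgad lower (1.52%). At an unadjusted p under 0.05, 4 were higher (10.2%) and 12 lower (12.3%). In that comparison 3 members lay higher without overlap (6.37%) and 8 lower (6.06%), and DESeq2 called 3 members higher (4.4%) and 9 lower (5.83%).

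The median log2 fold change over the 36 tested members was -0.20 in Homo KO against WT, -0.16 in Hete KO against WT and -0.20 for both KO groups, where the medians over all tested genes were -0.01, 0.02 and -0.01. Below zero were 23, 25 and 28 of the 36 in these comparisons. The laminin chains were evenly split in Homo KO, with 5 of 10 tested above zero, while 13 of 18 integrin α subunits and 5 of 8 β subunits were below it. The plot of fold changes places Lama3 at the top and Itgad at the bottom in both comparisons.

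**Figure D2:**
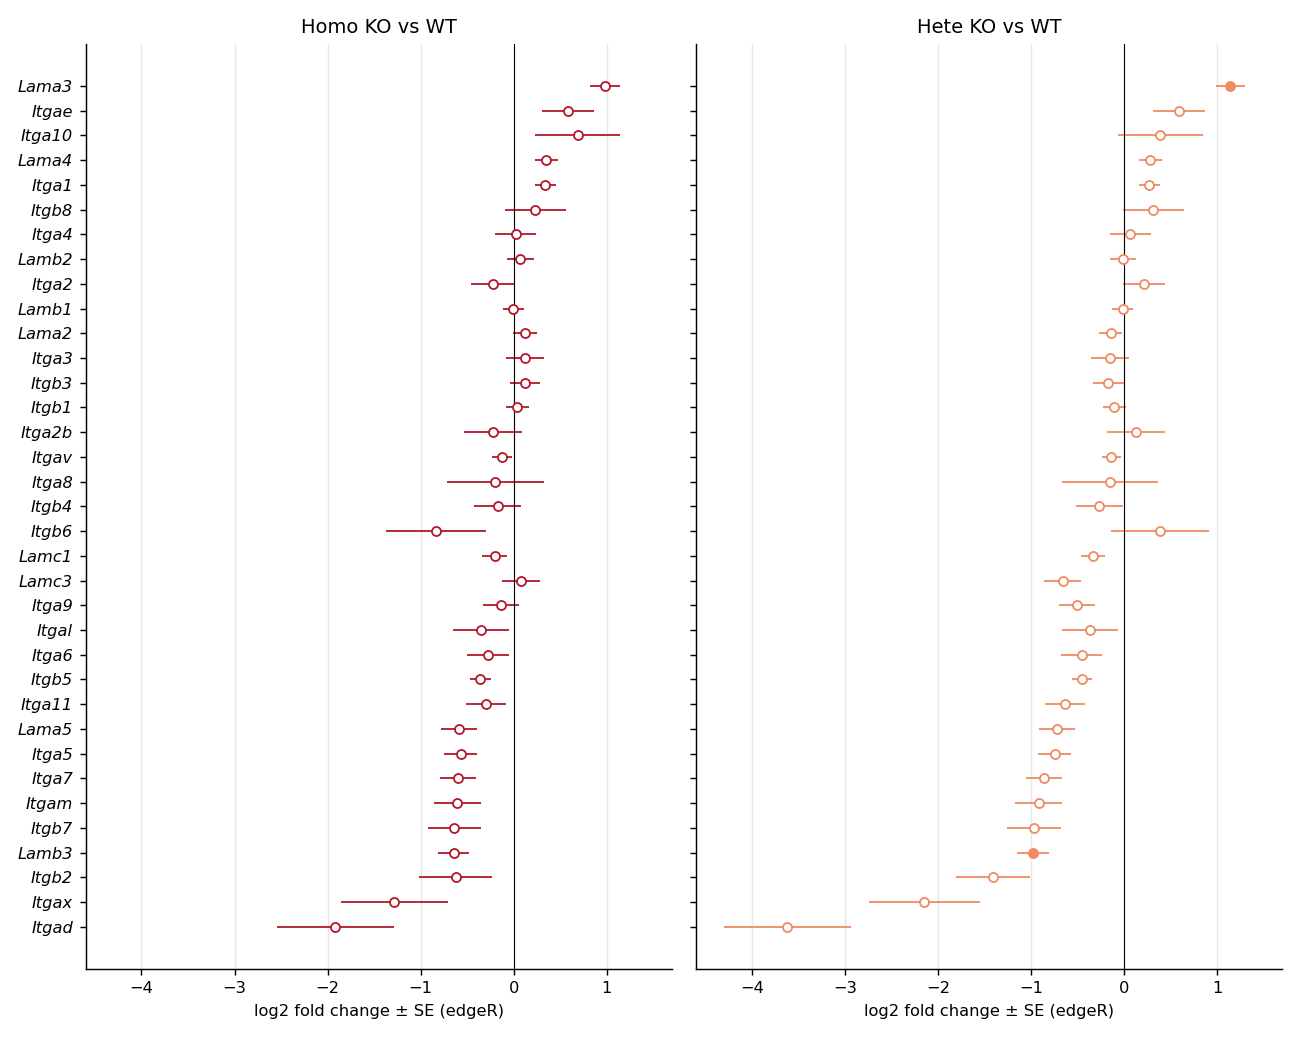
Fitted log2 fold change of 35 tested members in Homo KO against WT (left) and Hete KO against WT (right), with SE as bars, ordered by the average of both KO groups. Filled points have an adjusted p under 0.05, which only Lama3 (1.14) and Lamb3 (-0.98) in Hete KO against WT reach.

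The 3 called members rested on few libraries, as did the calls over all tested genes. Both edgeR calls in Hete KO against WT ended when these 6 libraries were fitted alone, where 0 of 17511 tested genes were called. The Hete KO call of Lama3 ended when WT 2, WT 3, Hete KO 2, Hete KO 3 or any Homo KO library was left out, and its call over both KO groups when WT 2, Hete KO 3, Homo KO 2 or Homo KO 3 was. The count of lower members in Hete KO against WT was 0 without WT 2, WT 3, Hete KO 2, Hete KO 3 or any Homo KO library. In those fits 0 to 14 of all 18364 to 18567 tested genes were called lower. It was 3 without WT 1 and 7 without Hete KO 1, where 307 and 601 of all tested genes were, beside 48 with all libraries. Over both KO groups it was 0 without WT 2, WT 3, Hete KO 3, Homo KO 2 or Homo KO 3, 1 without Homo KO 1 and 7 without Hete KO 1. Of all tested genes 2 to 24, 29 and 702 were called lower in these fits, beside 273 with all libraries. Leaving out the 3 libraries rich in skeletal muscle RNA, or the 2 WT libraries rich in Alb, leaves WT with 1 library. That library is assumed to vary like the others, so the calls of these fits are not given. With muscle and liver shares as covariates edgeR called no member, and 0 of all 17968 tested genes in either direction. With these covariates the difference from WT turned positive for Itga5, Itgb5 and Lama5 in both KO groups and for Itgad, Itgam, Itgb2 and Itgb7 in Homo KO, and turned negative for Lama4 in Homo KO and Itga1 in Hete KO; none of these values was called.

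Lama3 encodes the laminin α3 chain. It had 15.5, 12.5 and 13.1 normalized CPM in Homo KO libraries, 13.9, 14.7 and 17.5 in Hete KO libraries and 6.47, 6.65 and 7.74 in WT libraries. All 6 KO libraries lay above all 3 WT libraries. The log2 fold change was 0.98 ± 0.16 (SE) in Homo KO (edgeR adjusted p = 0.126), 1.14 ± 0.16 in Hete KO (adjusted p = 0.0332) and 1.06 ± 0.14 over both KO groups (adjusted p = 0.0265). Lama3 thus rose in Hete KO and over both KO groups. Its share of the α chains was 1.52 ± 0.326% in Homo KO, 1.83 ± 0.373% in Hete KO and 0.785 ± 0.0494% in WT libraries.

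Lamb3, the β3 chain that joins α3 in epithelial laminin, moved the other way. It had 16.9, 13.9 and 16.4 normalized CPM in Homo KO, 15.4, 9.99 and 12.1 in Hete KO and 23.5, 24.97 and 25.4 in WT libraries, so that every KO library was below every WT library. The log2 fold change was -0.65 ± 0.17 in Homo KO (edgeR adjusted p = 0.176), -0.98 ± 0.17 in Hete KO (adjusted p = 0.0488) and -0.81 ± 0.14 over both KO groups (adjusted p = 0.0395). Counted over long coding transcripts alone, Lama3 was still called over both KO groups and Lamb3 was not.

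Lama4, the main α chain of this tissue and of capillary basement membranes, had 480.4, 509 and 571 normalized CPM in Homo KO, 499, 458 and 533 in Hete KO and 404, 369 and 455 in WT libraries. All KO libraries exceeded all WT libraries, by a narrow margin between Hete KO 2 at 458 and WT 3 at 455. The log2 difference of 0.35 ± 0.12 in Homo KO (edgeR adjusted p = 0.238) and 0.28 ± 0.12 in Hete KO (adjusted p = 0.225) did not pass. Endothelial markers summed to 531 to 940 TPM in Homo KO, 576 to 640 in Hete KO and 600 to 929 in WT libraries, overlapping. EdgeR called 0 of 15 in any comparison. DESeq2 called 2 lower in Hete KO against WT (5.7% of all genes) and 2 lower over both KO groups (5.83%). Lama5, the other α chain of vessel walls, was on the opposite side. It had 60.1, 44.1 and 41.3 CPM in Homo KO, 44.1, 45.8 and 42.7 in Hete KO and 63.3, 94.6 and 60.8 in WT libraries, with log2 differences of -0.59 ± 0.19 in Homo KO (adjusted p = 0.218) and -0.72 ± 0.19 in Hete KO (adjusted p = 0.0856). The gap between Homo KO 1 at 60.1 and WT 3 at 60.8 was small, and WT 2 stood above the rest.

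Lamc1, the γ chain of nearly all trimers here, had 520.0, 524 and 602 normalized CPM in Homo KO, 571, 431 and 503 in Hete KO and 604, 616 and 679 in WT libraries. Its log2 difference was -0.21 ± 0.13 in Homo KO (edgeR adjusted p = 0.455) and -0.34 ± 0.13 in Hete KO (adjusted p = 0.179). The KO libraries lay below WT, Homo KO 3 at 602 almost touching WT 1 at 604. Lama2, Lamb1 and Lamb2 overlapped between both KO groups and WT. Over the 6 KO libraries Lama2 had 170.4 to 245 CPM, against 198 to 243 in WT libraries. Lamb1 had 209 to 242 CPM in KO and 207 to 239 in WT libraries, and Lamb2 196 to 239 in KO and 167 to 242 in WT libraries. Lama1, the embryonic α chain, had 4 to 12 reads per library in Homo KO, 0 in all Hete KO and 1 to 10 in WT libraries and was not tested. A count of 0 allows up to 3 reads, or 0.11 to 0.144 CPM in the Hete KO libraries.

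Summed by chain type on the long coding TPM scale, α chains came to 145, 138 and 154 TPM in Homo KO, 144, 118 and 143 in Hete KO and 133, 115 and 123 in WT libraries, overlapping in Hete KO and clear of WT in Homo KO. β chains overlapped, at 107 ± 7.73 TPM in Homo KO, 104 ± 4.18 in Hete KO and 109 ± 5.33 in WT libraries (SD, n = 3 each). γ chains came to 109, 96.6 and 111.4 TPM in Homo KO, 114, 79.5 and 98.4 in Hete KO and 126, 119.6 and 123 in WT libraries. The ratio of γ to α chains was 0.748, 0.701 and 0.723 in Homo KO, 0.793, 0.676 and 0.687 in Hete KO and 0.951, 1.04 and 1.0004 in WT libraries. WT libraries therefore held about as much γ as α chain mRNA, and each KO library less. These sums were formed after the levels were known and were given no test.

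**Figure D3:**
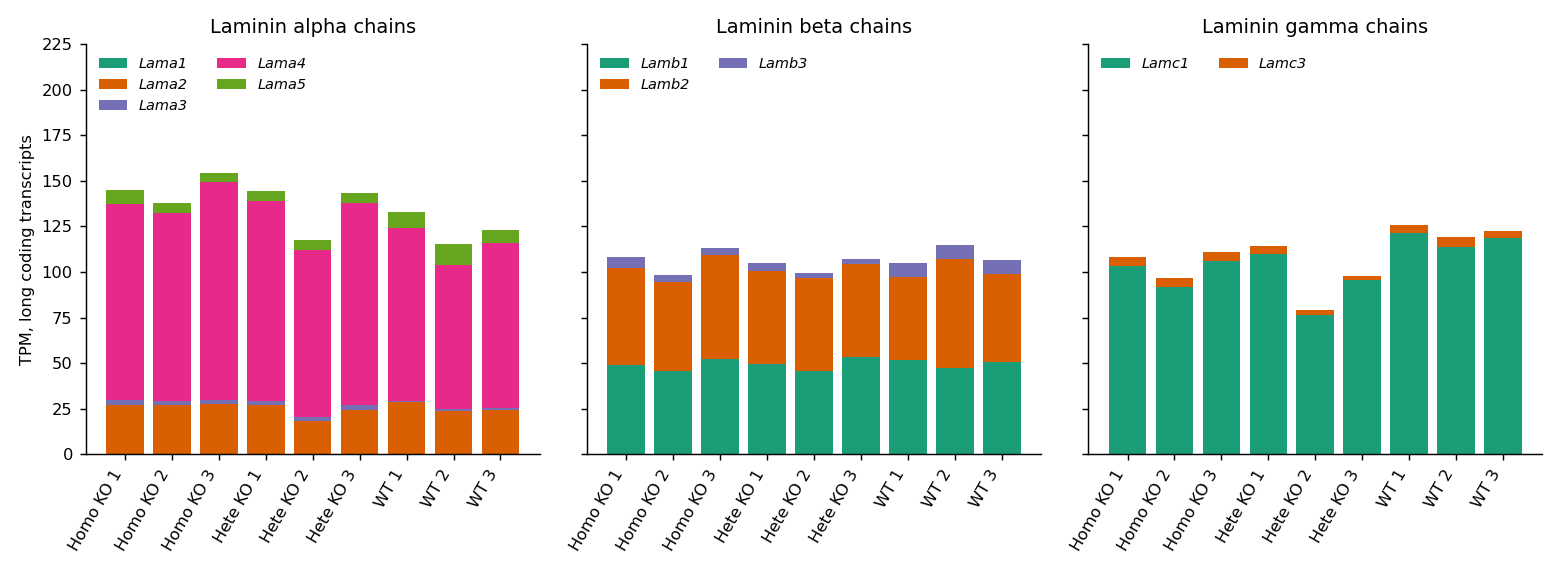
Laminin α, β and γ chain mRNA per library in TPM of long coding transcripts, stacked by gene, with Homo KO, Hete KO and WT libraries from left to right. Lama4 made up 73.8 to 77.6% of α chains in Homo KO, 75.9 to 77.9% in Hete KO and 68.6 to 73.5% in WT libraries, and γ chain bars are highest in WT.

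Among the α partners of β1, Itga7 had the largest difference in mean CPM from WT in both KO groups. This laminin receptor subunit, known from muscle and vessel walls, had 203, 197 and 211.5 normalized CPM in Homo KO, 234, 144 and 132 in Hete KO and 300.4, 289 and 337 in WT libraries. Every KO library was below every WT library, and WT 3 was the highest. The log2 fold change was -0.60 ± 0.20 in Homo KO (edgeR adjusted p = 0.218), -0.86 ± 0.20 in Hete KO (adjusted p = 0.0679) and -0.73 ± 0.16 over both KO groups (adjusted p = 0.0516), just short of the threshold. DESeq2 gave adjusted p = 0.000737 for the last. Under the other settings, apart from leaving out 1 library, it ranged from -0.72 to -0.043 in Homo KO, -0.94 to -0.24 in Hete KO and -0.80 to -0.14 over both KO groups. The part of muscle RNA in these values was not tested. Itga6, the other abundant laminin-binding subunit, had 275, 247 and 244 CPM in Homo KO, 322, 155 and 199 in Hete KO and 319, 288 and 321.03 in WT libraries. Hete KO 1 reached the WT level, while Homo KO libraries lay under it. Smooth muscle and pericyte markers (11 genes) summed to 713 to 741 TPM in Homo KO, 639 to 796 in Hete KO and 703 to 964 in WT libraries. EdgeR called 0 of them. DESeq2 called 1 lower in Hete KO against WT (5.7% of all genes) and 1 lower over both KO groups (5.83%). Itga3 was low in all groups, at 5.27 to 8.70 CPM in KO and 5.92 to 7.17 in WT libraries.

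Itga1, the receptor subunit for collagen IV and I, lay on the other side of WT. It had 388, 367 and 344 normalized CPM in Homo KO, 327, 357 and 366 in Hete KO and 319.8, 284 and 266 in WT libraries, all KO above all WT. The log2 difference was 0.34 ± 0.11 in Homo KO (edgeR adjusted p = 0.221), 0.27 ± 0.11 in Hete KO (adjusted p = 0.197) and 0.30 ± 0.10 over both KO groups (adjusted p = 0.110), none past the threshold. Its longest transcript shares 685 exon bases with Gm49395 on the same strand, between which reads may have been split. Over the 9 libraries Gm49395 averaged 10.2 TPM and Itga1 57.9 TPM, summed over all transcripts. The other collagen-binding subunits were scarce, with Itga11 at 10.2 to 11.1 CPM in Homo KO, 7.60 to 8.90 in Hete KO and 9.81 to 17.6 in WT libraries. Itga2 had 3.82 to 5.98 CPM in Homo KO, 5.19 to 7.38 in Hete KO and 5.35 to 6.09 in WT libraries, and Itga10 0.986 to 2.23 in Homo KO, 1.02 to 2.08 in Hete KO and 0.710 to 1.39 in WT libraries.

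Itga5, which with β1 forms the main fibronectin receptor, had 44.7, 34.3 and 35.7 normalized CPM in Homo KO, 40.6, 30.2 and 30.8 in Hete KO and 53.5, 69.3 and 47.5 in WT libraries. No KO library reached a WT library. The log2 difference was -0.57 ± 0.18 in Homo KO (edgeR adjusted p = 0.212), -0.74 ± 0.18 in Hete KO (adjusted p = 0.0722) and -0.66 ± 0.15 over both KO groups (adjusted p = 0.0533). Itgb1 itself overlapped throughout, with 664, 640.4 and 678 CPM in Homo KO, 617, 534 and 648 in Hete KO and 722, 581 and 633 in WT libraries. EdgeR called neither the shared β1 subunit nor any of its α partners in any comparison. By library order alone, Itga7 and Itga5 lay below WT and Itga1 above it, while Itgb1 overlapped. Itga4, the α4 subunit that binds VCAM1, overlapped too, at 61.1 to 90.5 CPM in Homo KO, 67.6 to 87.0 in Hete KO and 58.7 to 100.7 in WT libraries. So did Itga9, a receptor subunit for tenascin and other matrix proteins, at 22.9 to 35.1 CPM in Homo KO, 20.4 to 25.9 in Hete KO and 25.5 to 39.2 in WT libraries, and Itga8, at 0.616 to 2.36 in Homo KO, 1.30 to 1.98 in Hete KO and 0.998 to 2.55 in WT libraries.

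Paired on the long coding TPM scale, the 12 α partners of β1 summed to 259, 217 and 212 TPM in Homo KO, 263, 168 and 195 in Hete KO and 312, 265 and 269.9 in WT libraries. Itgb1 had 257, 212 and 235 TPM in Homo KO, 234, 189 and 243 in Hete KO and 288, 210.5 and 214 in WT libraries, so that both sides of these dimers had similar mRNA levels. Itga7 made up 29.3 ± 1.93% of this α pool in Homo KO, 25.4 ± 4.44% in Hete KO and 37.1 ± 2.14% in WT libraries. Itga1 made up 18.6 ± 0.502% in Homo KO, 20.3 ± 4.53% in Hete KO and 11.9 ± 1.12% in WT libraries. The ratio of laminin-binding (Itga3, Itga6, Itga7) to collagen-binding (Itga1, Itga2, Itga10, Itga11) subunits was 2.86, 2.78 and 2.98 in Homo KO, 3.86, 1.90 and 2.01 in Hete KO and 4.56, 4.46 and 5.59 in WT libraries. It was lower in every KO library than in any WT library. As with the laminin sums, this ratio was formed after the levels were known and was not tested.

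Itgb5, which pairs with αv as a vitronectin receptor, had 102, 105 and 96.6 normalized CPM in Homo KO, 102, 96.1 and 87.8 in Hete KO and 114, 139 and 138 in WT libraries. Each KO library was below each WT library, with log2 differences of -0.36 ± 0.11 in Homo KO (edgeR adjusted p = 0.208), -0.45 ± 0.11 in Hete KO (adjusted p = 0.0745) and, over both KO groups, -0.41 ± 0.09 (adjusted p = 0.0550). Its partner Itgav overlapped between groups, at 126 to 132 CPM in Homo KO, 116 to 135 in Hete KO and 127 to 149.8 in WT libraries. The other αv partners Itgb3, Itgb6 and Itgb8 were low, at 1.92 to 13.2 CPM over all libraries, and none was called.

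Itgad encodes αD, an integrin of tissue macrophages, and had the largest fold change of the members in both comparisons with WT. It had 43.6, 18.6 and 7.06 normalized CPM in Homo KO, 13.6, 3.29 and 4.18 in Hete KO and 77.0, 94.8 and 89.8 in WT libraries. The KO libraries varied widely, Homo KO 1 being highest, yet none came near WT. The log2 fold change was -1.92 ± 0.63 in Homo KO (edgeR adjusted p = 0.218), -3.62 ± 0.68 in Hete KO (adjusted p = 0.0576) and -2.77 ± 0.51 over both KO groups (adjusted p = 0.0405). Itgad thus fell over both KO groups, and DESeq2 called it there (adjusted p = 0.00157) and in Hete KO (adjusted p = 0.000319). Single libraries weighed on its size: the log2 value was -2.76 in Homo KO without Homo KO 1 and -4.52 in Hete KO without Hete KO 1 (edgeR adjusted p = 0.227 and 0.0170). Other libraries left out brought it to -1.48 in Homo KO and -3.28 in Hete KO. Over both KO groups it ranged from -3.22 to -2.54 (edgeR adjusted p = 0.0131 to 0.152). The call there was lost without WT 2, WT 3, Hete KO 3, Homo KO 2 or Homo KO 3. With muscle and liver shares as covariates the log2 value was -0.42 over both KO groups (edgeR adjusted p = 0.974). Itgad transcripts overlap Cox6a2, a gene of striated muscle, by up to 70 bases on the opposite strand. On that strand they also overlap other genes, among them 4931431B13Rik by 388 bases. The strand setting of the counting is not given in the sources used here, and the part of such reads was not tested.

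Itgam, Itgax and Itgad lie next to each other on chromosome 7 (GRCm38), Itgam at 128062640 to 128118491, Itgax at 128129547 to 128150657 and Itgad at 128154376 to 128223816, all on the plus strand. Itgam, the αM of macrophages and neutrophils, had 65.1, 48.4 and 35.3 normalized CPM in Homo KO, 51.2, 29.4 and 39.2 in Hete KO and 77.0, 88.3 and 61.005 in WT libraries. Hete KO and WT libraries did not overlap, while Homo KO 1 passed WT 3. Its log2 difference was -0.61 ± 0.25 in Homo KO (edgeR adjusted p = 0.278) and -0.92 ± 0.25 in Hete KO (adjusted p = 0.0944). Gm49368 shares 3450 of its exon bases on the same strand, so reads may have been split between them. Over the 9 libraries Gm49368 averaged 0.443 TPM and Itgam 17.7 TPM, summed over all transcripts. Itgax, the αX of dendritic cells and adipose macrophages, had 19.3, 14.2 and 3.24 CPM in Homo KO, 8.60, 4.09 and 7.49 in Hete KO and 37.4, 37.7 and 14.3 in WT libraries, with log2 differences of -1.28 ± 0.58 in Homo KO (adjusted p = 0.305) and -2.15 ± 0.59 in Hete KO (adjusted p = 0.0948).

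Their shared partner Itgb2 had 61.1, 41.0 and 20.7 normalized CPM in Homo KO, 32.2, 15.6 and 23.4 in Hete KO and 73.7, 74.4 and 41.4 in WT libraries. Homo KO overlapped WT and Hete KO did not, with log2 differences of -0.63 ± 0.39 in Homo KO (edgeR adjusted p = 0.442) and -1.41 ± 0.40 in Hete KO (adjusted p = 0.0961). Itgal, the αL of lymphocytes, overlapped, at 4.94 to 7.39 CPM in Homo KO, 4.97 to 6.67 in Hete KO and 4.42 to 9.70 in WT libraries. The 4 α partners of β2 summed on the long coding TPM scale to 47.4, 27.4 and 15.5 in Homo KO, 26.7, 12.01 and 18.1 in Hete KO and 73.3, 79.0 and 55.0 in WT libraries. Within that pool Itgad made up 24.0 ± 10.8% in Homo KO, 9.85 ± 7.31% in Hete KO and 47.7 ± 8.13% in WT libraries, and Itgam 55.3 ± 11.02% in Homo KO, 67.8 ± 5.64% in Hete KO and 34.1 ± 1.53% in WT libraries.

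**Figure D4:**
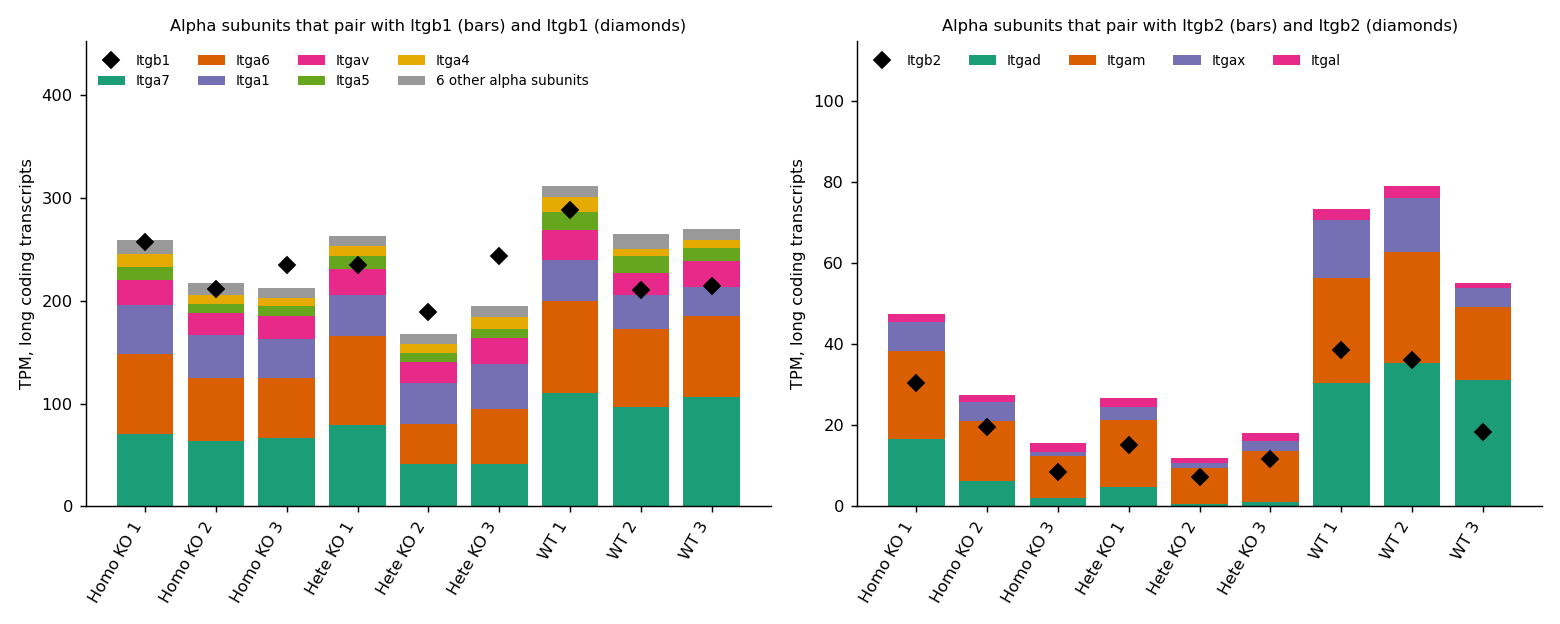
TPM of long coding transcripts per library for the α subunits that pair with β1 (left) and with β2 (right), stacked by gene, with the β subunit as a diamond; Homo KO, Hete KO and WT libraries from left to right. Itga7 and Itgad take a smaller part of their bars in every KO library than in any WT library, and Itgb1 shows no such split.

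Macrophage markers lay lower along with the β2 integrins. The 14 markers summed to 470 to 866 TPM in Homo KO, 383 to 575 in Hete KO and 739 to 1237 in WT libraries, with none at 0. With both KO groups averaged and set against WT, edgeR called 3 of 14 lower (1.52% of all tested genes) and 0 higher, namely C1qa, C1qb and C1qc, the complement subunits made by tissue macrophages. At an unadjusted p under 0.05, 10 of 14 were lower there (12.3% of all genes). DESeq2 called 9 lower there (5.83%). In Homo KO against WT edgeR called 0 (0% of all genes), 7 were lower at an unadjusted p under 0.05 (8.68%) and DESeq2 called 2 lower (2.02%). In Hete KO against WT edgeR called C1qc lower (0.267%), 10 were lower at an unadjusted p under 0.05 (12.1%) and DESeq2 called 10 lower (5.7%). Neutrophil and mast cell markers (12 genes) summed to 28.4 to 51.7 TPM in Homo KO, 24.2 to 37.5 in Hete KO and 41.0 to 52.3 in WT libraries. T and NK cell markers (13 genes) summed to 42.1 to 47.8 TPM in Homo KO, 36.1 to 53.6 in Hete KO and 34.0 to 48.9 in WT libraries. B cell markers (8 genes) lay higher than WT, at 18.6 to 26.6 TPM in Homo KO, 21.1 to 35.7 in Hete KO and 11.8 to 14.5 in WT libraries. EdgeR called 1 of these 8 higher over both KO groups (0.824% of all tested genes) and 0 lower (1.52%). The part of cell numbers in the β2 integrin values was not tested. Itgb7, which pairs with α4 or αE on lymphocytes, had 4.53, 3.61 and 3.49 CPM in Homo KO, 2.52, 2.87 and 3.89 in Hete KO and 4.802, 8.42 and 4.92 in WT libraries. Its log2 differences were -0.64 ± 0.29 in Homo KO (edgeR adjusted p = 0.303) and -0.97 ± 0.29 in Hete KO (adjusted p = 0.107), at low levels. Its partner Itgae overlapped in Hete KO, at 4.68 to 5.84 CPM in Homo KO, 4.01 to 6.22 in Hete KO and 2.34 to 4.42 in WT libraries.

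Promoters are shown for 3 leukocyte integrins that lay lower in Hete KO than in WT libraries and for Lamb3, which was called there, to set members that lay on the same side of WT next to each other; they were chosen with the values known. Each run spans 250 bases before to 50 after an annotated start, from RefSeq on GRCm38.p6, written 5′ to 3′ on the gene's strand. Of the 37 members 23 were matched, with 26 promoters. Capitals mark GAGGAA, the core bound by PU.1-type Ets factors of myeloid cells, and TGANTCA, the AP-1 motif, searched on both strands; these motifs share no bases in the runs shown.
Itgam, chr7:128062390-128062689, plus strand: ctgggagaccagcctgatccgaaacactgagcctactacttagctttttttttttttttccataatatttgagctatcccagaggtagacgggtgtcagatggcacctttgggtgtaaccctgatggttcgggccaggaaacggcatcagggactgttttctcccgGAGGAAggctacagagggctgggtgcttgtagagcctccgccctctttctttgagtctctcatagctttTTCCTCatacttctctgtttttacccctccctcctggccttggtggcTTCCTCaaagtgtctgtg
Itgax, chr7:128129300-128129599, plus strand: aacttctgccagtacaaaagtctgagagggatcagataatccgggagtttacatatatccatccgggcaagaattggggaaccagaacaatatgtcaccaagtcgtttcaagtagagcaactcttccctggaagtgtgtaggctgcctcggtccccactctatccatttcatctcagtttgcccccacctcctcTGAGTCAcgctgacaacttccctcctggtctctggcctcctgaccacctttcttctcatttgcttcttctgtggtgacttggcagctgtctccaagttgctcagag
Itgb7, chr15:102231886-102232185, minus strand: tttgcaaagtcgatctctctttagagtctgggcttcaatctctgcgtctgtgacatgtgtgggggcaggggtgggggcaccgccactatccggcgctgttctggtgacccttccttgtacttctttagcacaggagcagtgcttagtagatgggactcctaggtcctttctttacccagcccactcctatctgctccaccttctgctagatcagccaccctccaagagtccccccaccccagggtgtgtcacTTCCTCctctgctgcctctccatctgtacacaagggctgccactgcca
Lamb3, chr1:193301744-193302043, plus strand: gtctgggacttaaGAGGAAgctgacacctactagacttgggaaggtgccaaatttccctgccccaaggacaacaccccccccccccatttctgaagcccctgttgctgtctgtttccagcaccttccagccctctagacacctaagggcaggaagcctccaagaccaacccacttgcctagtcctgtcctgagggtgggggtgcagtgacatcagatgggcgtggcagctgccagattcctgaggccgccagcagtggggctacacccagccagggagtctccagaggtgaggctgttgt

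GAGGAA stood at positions 167, 236 and 283 of the Itgam promoter, at 253 of Itgb7 and at 14 of Lamb3 (the more upstream of its 2 starts), counted from 1 at the 5′ end, and not in that of Itgax, where TGANTCA stood at 195. Over all 32851 RefSeq promoters of this length 28.3% held GAGGAA, and among those of the members 14 of 26. TGANTCA was held by 7.81% of all promoters and by 3 of 26 here. A match in so short a motif is a description of these letters and does not show a bound site.

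**Figure D5:**
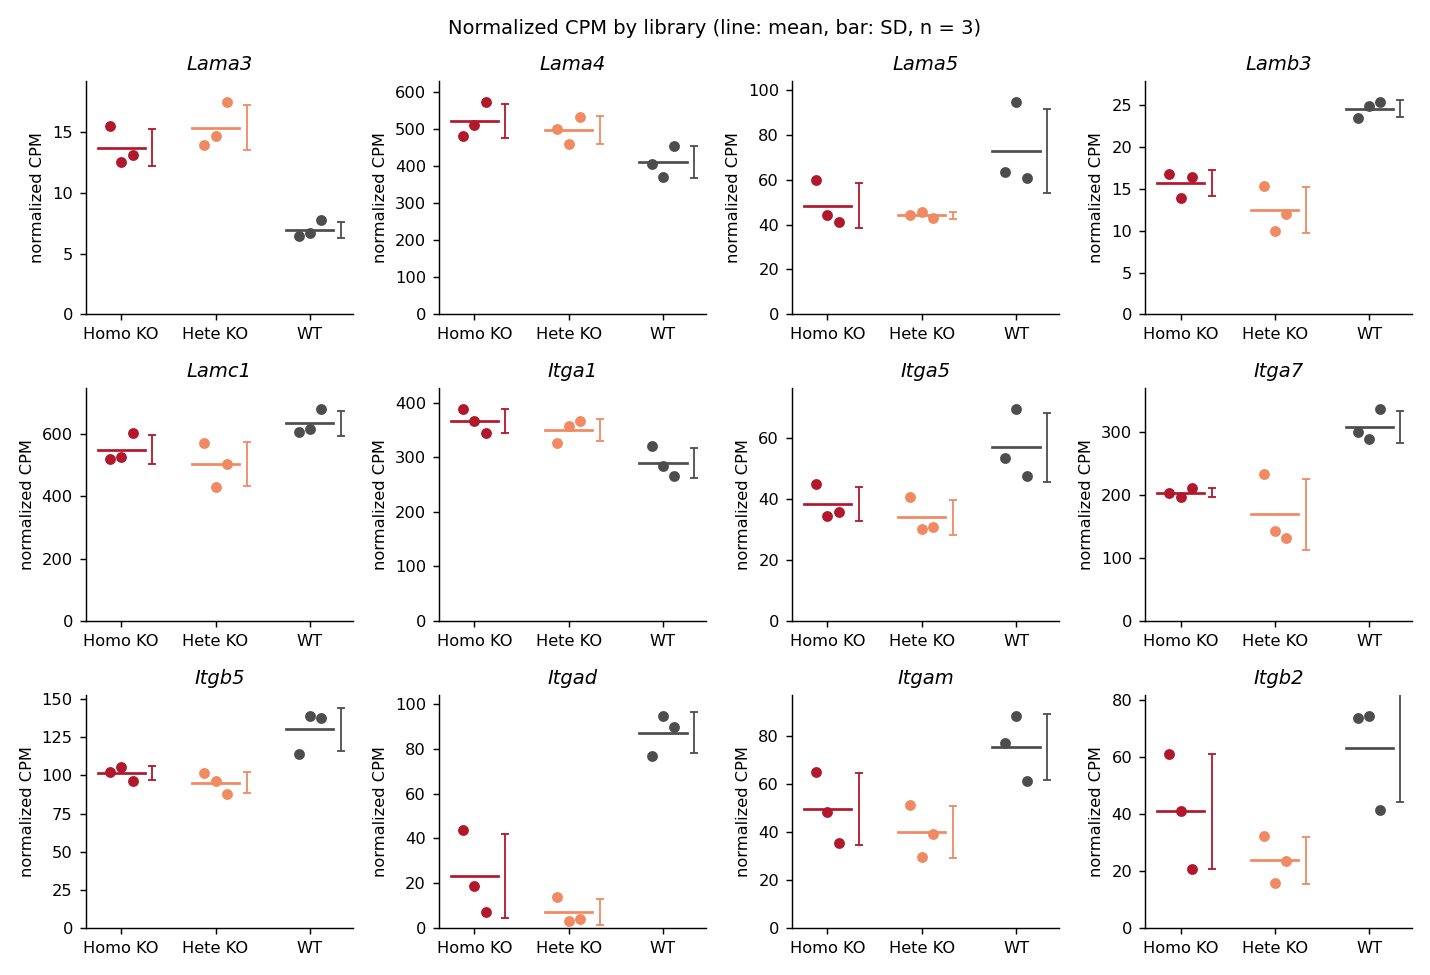
Normalized CPM of 12 members in each library, with the group mean as a line and the SD as a bar (n = 3), for Homo KO, Hete KO and WT from left to right in each panel; each axis starts at 0. Lama3 lies at 12.5 to 17.5 CPM in KO and 6.47 to 7.74 in WT libraries, Lamb3 shows the reverse order, and Itgad spans 7.06 to 43.6 CPM in Homo KO libraries.

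Homo KO was also set against Hete KO, to ask whether the groups of different gene dose differ. No member was called (0 of 36, where 0% of all tested genes was called higher or lower by edgeR), and 2 were higher (2.25% of all genes) and 1 lower (3.2%) at an unadjusted p under 0.05, with 0 called by DESeq2 (0.0223% of all genes in each direction). Homo KO lay above Hete KO without overlap for 3 members, against 5.73% of all tested genes, and below for 0, against 5.64%. The smallest p belonged to Lamc3, a γ chain of nerve and epithelia, with 18.5, 19.3 and 20.1 normalized CPM in Homo KO, 15.5, 10.2 and 9.04 in Hete KO and 16.0, 20.8 and 18.3 in WT libraries. The log2 difference of Homo KO from Hete KO was 0.74 ± 0.20 (edgeR adjusted p = 0.899). The median over members was 0.13, against 0.00 over all genes, and 27 of 36 were above zero. No single member separated the KO groups by test.

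Genes that work with laminins and integrins were read from lists of known partners. Of 20 basement membrane partners (18 tested), edgeR called Hspg2 lower over both KO groups against WT (1.52% of all tested genes) and 0 higher. At an unadjusted p under 0.05, 8 were lower (12.3% of all genes) and 0 higher (10.2%), and DESeq2 called 5 lower (5.83%) and 0 higher (4.4%). Hspg2, the perlecan that laminin networks carry, had 2108, 1846 and 1883 CPM in Homo KO, 1827, 1389.6 and 1504 in Hete KO and 2435, 2772 and 2432 in WT libraries, no KO library reaching WT (edgeR adjusted p = 0.0477). Col4a1 and Col4a2, the collagen IV chains, lay below WT in all KO libraries without a call (edgeR adjusted p = 0.0613 and 0.0645). Nid1, the nidogen that links laminin γ1 to collagen IV, overlapped, at 1414 to 1539 CPM in Homo KO, 1115 to 1392 in Hete KO and 1195 to 1441 in WT libraries.

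Of 35 integrin ligands (30 tested), edgeR called 3 lower over both KO groups (1.52% of all tested genes) and 0 higher, namely Fn1, Emilin1 and Vtn. At an unadjusted p under 0.05, 17 were lower (12.3% of all genes) and 0 higher (10.2%), and DESeq2 called 11 lower (5.83%) and 0 higher (4.4%). Emilin1, a matrix glycoprotein, had 10.7 to 12.4 CPM in Homo KO, 9.69 to 11.1 in Hete KO and 14.3 to 23.2 in WT libraries (edgeR adjusted p = 0.0461). Fn1, the fibronectin bound by α5β1, had 512, 416 and 328 CPM in Homo KO, 417, 338 and 324 in Hete KO and 624, 1190.0 and 773 in WT libraries (edgeR adjusted p = 0.0395). Vtn, the vitronectin ligand of αvβ5, is made chiefly by liver. It had 4.57 to 5.13 CPM in Homo KO, 3.11 to 4.76 in Hete KO and 4.97, 13.1 and 16.0 CPM in WT libraries, the last 2 being the libraries rich in Alb (edgeR adjusted p = 0.0475).

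Of 50 adaptor and signalling genes, all tested, Tns3, a tensin that binds integrin tails, was called lower (edgeR adjusted p = 0.0408) at 47.6 to 60.1 CPM in Homo KO, 39.0 to 57.1 in Hete KO and 71.7 to 93.0 in WT libraries, and edgeR called 0 higher. Of these 50, 3 were higher and 9 lower at an unadjusted p under 0.05 (10.2% and 12.3% of all genes), and DESeq2 called 2 higher and 2 lower (4.4% and 5.83%). Of 15 other laminin receptors, among them dystroglycan (Dag1) and Bcam, none was called in either direction by edgeR; 2 were higher and 2 lower over both KO groups at an unadjusted p under 0.05 (10.2% and 12.3% of all genes), and DESeq2 called 0 higher and 2 lower (4.4% and 5.83%). In Homo KO against WT and in Homo KO against Hete KO no gene of these 4 lists was called by edgeR, and in Hete KO against WT none either. In Hete KO against WT, at an unadjusted p under 0.05, 7, 2, 19 and 11 members of the basement membrane, receptor, ligand and adaptor lists were lower (12.1% of all genes) and 0, 2, 0 and 3 higher (9.71%). In Homo KO against WT, 4, 1, 7 and 3 were lower (8.68% of all genes) and 2, 0, 0 and 4 higher (7.75%). The median log2 fold change over both KO groups was -0.29, -0.29, -0.46 and -0.11 over these lists, beside -0.01 over all tested genes. Markers of adipose progenitors and fibroblasts, which make much of this matrix, summed to 1079.7 to 1299.5 TPM in Homo KO, 778 to 1068.5 in Hete KO and 1344 to 1587 in WT libraries, with none at 0. Over both KO groups edgeR called 2 of 12 lower (1.52% of all genes) and DESeq2 9 (5.83%). In Hete KO against WT edgeR called 1 lower (0.267%), 12 were lower at an unadjusted p under 0.05 (12.1%) and DESeq2 called 12 (5.7%). In Homo KO against WT edgeR called 0 (0%), 3 were lower at an unadjusted p under 0.05 (8.68%) and DESeq2 called 2 (2.02%). The part of these cells in the values above was not tested.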

How the data were processed

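RNA from 9 subcutaneous fat samples, 3 per genotype, was sequenced and quantified by the authors per transcript. The submitters' processing notes name build mm10; no source used here names the quantifier. The deposited values are estimated counts and TPM for 113193 transcripts, of which 111362 matched GENCODE M21 identifiers and 35071 genes; 0.581 to 1.06% of counts fell on unmatched transcripts. Estimated counts were summed per gene and rounded to whole numbers. Tests used edgeR 4.0.16 (R 4.3.3): TMM normalization, filterByExpr, the quasi-likelihood F-test on all 9 libraries with a coefficient per group, and Benjamini-Hochberg adjustment over 17968 genes with a threshold of 0.05. Fold changes use a prior count of 0.125. Alternatives were DESeq2 1.42.0, limma 3.58.1 on log2(TPM + 0.5) and log2(TPM + 0.1), other filters and scalings, each library left out, and fits without the libraries rich in muscle or liver RNA. The fits were tested on simulated data. The split of reads between transcripts of a gene is an estimate, which bears on the TPM of long coding transcripts. Total counts of 20843427 to 28252001 per library set the precision, and the limit given for a count of 0 covers counting error only.

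Members, gene lists, pairings and the rule for named genes were chosen with earlier results of these data known; the restriction to long coding transcripts and the exclusion of libraries by Alb were chosen after seeing the data. The rule named 19 members: the most abundant ones, those that passed a test or had the smallest p, and those whose KO and WT libraries did not overlap in both comparisons. Itgam and Itgax as partners of named members, and Lamc3, were added after their values were seen. The remaining members are given by their ranges. The values of 1 member are not reported here; counts and sums over members include it, and the plots leave it out.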

Additional observations from a re-analysis of the deposited data

How the results depend on the processing

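Fold changes of 15 members were recomputed under 23 other settings. Of 933 values, 811 kept their direction and their side of the threshold, 65 lost a call, 39 gained one and 18 changed sign. Values that kept their side were mostly uncalled from the start. Only Lama3 and Lamb3, in Hete KO against WT and over both KO groups, and Itgad over both had a call to lose. All of these calls were lost under a transcript length offset, both limma fits and the covariates. Leaving out WT 2, Hete KO 3, Homo KO 2 or Homo KO 3 also ended all of them. All 18 sign changes came with muscle and liver shares as covariates, and none of these values was called. They were, on the log2 scale, in Homo KO against WT 0.45 for Itga5, 0.47 for Itgad, 0.21 for Itgb5, 0.23 for Itgb7, -0.056 for Lama4, 0.51 for Lama5, 0.40 for Itgb2 and 0.33 for Itgam. In Hete KO against WT they were -0.061 for Itga1, 0.17 for Itga5, 0.13 for Itgb5 and 0.22 for Lama5. Over both KO groups they were 0.31 for Itga5, 0.17 for Itgb5, 0.046 for Itgb7, -0.016 for Lama4, 0.37 for Lama5 and 0.14 for Itgam. WT libraries held most of the liver RNA, so the liver share and the genotype cannot be told apart well in this fit.

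DESeq2 called 1 member higher (1.61% of all tested genes) and 1 lower (2.02%) in Homo KO against WT. It called 1 higher (3.62%) and 11 lower (5.7%) in Hete KO against WT, and 3 higher (4.4%) and 9 lower (5.83%) over both KO groups. With no filter 2 members were lower in Hete KO against WT. The counts there were 0 higher and 0 lower under a transcript length offset and both limma fits. They were also 0 and 0 for the compared groups alone, the covariates and long coding transcripts. Over both KO groups they were 0 and 0 under these, except that the compared groups alone were not run there and that long coding transcripts kept 1 higher; with no filter 5 were lower. Leaving out 1 library at a time gave 0 to 1 higher and 0 to 7 lower, in Hete KO against WT and over both KO groups alike. Over all tested genes it gave 0 to 357 higher and 0 to 601 lower in Hete KO against WT, and 0 to 393 and 2 to 702 over both KO groups. With no filter 168 of 25436 genes were lower in Hete KO against WT and 538 over both KO groups. Under the length offset, limma, the covariates and long coding transcripts 0 to 2 and 0 to 51 genes were lower. The cause of these shifts was not tested. In edgeR, scaling by DESeq2's size factors gave the same counts of called members as TMM. Of all tested genes it called 140 higher and 264 lower over both KO groups, beside 148 and 273 with TMM. The planned exclusion of libraries by liver share removed all WT libraries and was run only for Homo KO against Hete KO.

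Samples with the same replicate number had deviations correlated at -0.07 to 0.46, so the numbers were not taken as pairs. With a replicate block 2 members were lower in Hete KO against WT and 4 over both KO groups, where 156 and 313 of 17968 tested genes were. Members under 5 CPM rest on few reads, so small differences there were not detectable at this depth.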
